A study of Mus musculus with 13 samples.

Results

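The immediate early transcription factors examined here were 10 mouse genes taken by name, namely Fos, Fosb, Jun, Junb, Egr1, Egr2, Ier2, Atf3, Nr4a1 and Dusp1. They are 10 of the 19938 genes that had a probe set assigned to a single gene on the Affymetrix whole-transcript array. Each of the 10 had exactly 1 such probe set, and all 10 lay among the 14953 genes kept after the dimmest 25% of genes were left out. The label fits most members as background knowledge has it, but Dusp1 encodes a phosphatase and Ier2 is not a classical DNA-binding factor.

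The samples were whole back skin of male C57Bl6 mice at postnatal day (P) 46, with hair follicles in telogen, the resting phase. The mice were kept on a cycle of 12 h light and 12 h dark with free access to chow. Skin was taken every 4 h, and each time point is named as zeitgeber time (ZT), the hours since lights on, with lights off at ZT12. The 13 collections ran from hour 2 to hour 50, which gave 3 arrays at ZT2 (hours 2, 26 and 50) and 2 arrays, 1 on each day, at ZT6, ZT10, ZT14, ZT18 and ZT22. Each array carried an equal mix of RNA from 3 mice, so the spread between arrays is a spread between pools, and the spread between single mice was not measured. As described with the samples, all groups shared strain, sex, age and hair cycle phase and differed in collection time. The light phase held 7 arrays and the dark phase 6, and the comparison of days used the 12 arrays of hours 2 to 46.

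Immediate early genes are transcribed within minutes of a stimulus, without the need for new protein, when mitogen-activated protein (MAP) kinases and cyclic AMP signalling activate factors such as SRF and CREB that already sit in the nucleus. FOS and JUN proteins pair as the AP-1 transcription factor, EGR proteins bind GC-rich sites through zinc fingers, and DUSP1 removes the activating phosphates from MAP kinases and so limits the same signal. In skin, AP-1 and EGR factors are known for their part in wound repair, in the response to ultraviolet light and in keratinocyte differentiation.

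The arrays had median intensities from 353.8 to 392.8 and pairwise correlations from 0.886 to 0.992. Markers of skin were present. All 7 basal keratinocyte markers passed the filter, with a summed intensity between 47601 and 52256, and all 7 dermal fibroblast markers passed. The arrays of hours 46, 2 and 22 stood furthest from the rest, with mean correlations to the other arrays of 0.936, 0.952 and 0.957. The array of hour 46, the second-day ZT22 pool, had a summed hair shaft marker intensity of 63458 against a median of 4520 over all arrays. The other arrays lay between 3042 and 6078. Whether the hour 46 pool was in the same hair cycle phase as the rest was not tested. The array of hour 2 had the lowest sums of fibroblast, hair follicle stem cell, and macrophage and dendritic cell markers. Its sums of hair shaft, T cell, mast cell, neutrophil, adipocyte and Schwann cell markers were the lowest too. The same array had the highest sums of differentiated keratinocyte (49188) and endothelium (10589) markers, and the lowest median intensity (353.8). Because whole skin was measured, fewer cells of a type and less RNA per cell cannot be told apart in any value given here.

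The 250 bases before and 50 bases after the transcription start are shown for 5 members, 3 that later gave the smallest p-values over 24 h (Fosb, Dusp1, Nr4a1), Fos as the name-giving gene, and Jun as the member without the marked motif. The windows come from RefSeq on GRCm38.p6 and are written 5′ to 3′ on the strand of the gene. Windows were found for 8 of the 10 members, all but Egr1 and Ier2. Capitals mark TGACG on either strand, so it also appears as CGTCA. These letters are the core of the cyclic AMP response element (CRE), the site of CREB and ATF factors. The window of Fos is chr12:85473640-85473939 on the plus strand, that of Fosb is chr7:19309996-19310295 on the minus strand, and that of Dusp1 is chr17:26508423-26508722 on the minus strand. The window of Nr4a1 is chr15:101266596-101266895 on the plus strand, and that of Jun is chr4:95052173-95052472 on the minus strand.
Fos: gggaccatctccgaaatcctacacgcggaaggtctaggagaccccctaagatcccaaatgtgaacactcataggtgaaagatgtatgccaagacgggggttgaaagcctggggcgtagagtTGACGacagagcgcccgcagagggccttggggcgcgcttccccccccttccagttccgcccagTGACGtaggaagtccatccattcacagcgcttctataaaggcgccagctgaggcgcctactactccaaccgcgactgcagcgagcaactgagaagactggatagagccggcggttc
Fosb: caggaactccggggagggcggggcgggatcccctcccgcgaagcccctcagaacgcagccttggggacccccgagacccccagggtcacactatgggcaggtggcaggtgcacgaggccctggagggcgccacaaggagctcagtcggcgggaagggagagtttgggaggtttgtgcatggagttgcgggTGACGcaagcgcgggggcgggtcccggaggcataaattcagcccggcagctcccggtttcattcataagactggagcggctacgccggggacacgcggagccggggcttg
Dusp1: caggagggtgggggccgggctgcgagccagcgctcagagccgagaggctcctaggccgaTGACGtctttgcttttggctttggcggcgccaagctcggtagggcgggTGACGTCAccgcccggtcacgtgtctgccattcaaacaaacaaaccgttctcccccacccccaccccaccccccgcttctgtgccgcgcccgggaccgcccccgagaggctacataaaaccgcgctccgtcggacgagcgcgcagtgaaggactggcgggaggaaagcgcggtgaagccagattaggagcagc
Nr4a1: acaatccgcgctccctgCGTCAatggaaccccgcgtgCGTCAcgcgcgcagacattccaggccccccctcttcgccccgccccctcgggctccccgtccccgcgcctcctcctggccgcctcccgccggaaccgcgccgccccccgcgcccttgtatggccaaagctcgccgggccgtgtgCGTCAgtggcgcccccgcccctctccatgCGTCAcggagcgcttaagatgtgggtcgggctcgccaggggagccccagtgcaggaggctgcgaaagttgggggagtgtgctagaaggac
Jun: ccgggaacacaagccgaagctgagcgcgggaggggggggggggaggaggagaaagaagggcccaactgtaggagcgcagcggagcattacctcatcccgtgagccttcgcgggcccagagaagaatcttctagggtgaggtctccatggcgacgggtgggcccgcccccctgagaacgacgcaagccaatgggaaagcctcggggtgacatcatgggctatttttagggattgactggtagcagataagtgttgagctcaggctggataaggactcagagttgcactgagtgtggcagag

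TGACG lay in 7 of the 8 members with a window, and in 20.8% of the 32851 windows in the table. Nr4a1 held it 4 times, at positions -233, -213, -69 and -40 from the start, where each position is that of the first base. Fos held it at -129 and -66, and Fosb held it once, at -60. Dusp1 held the full palindrome TGACGTCA at -143, which includes TGACG on both strands, and another TGACG at -191. The palindrome lay in 1.79% of all windows and in no other member. Egr2 is listed with 5 windows and is counted where any of them matched. The CArG box, the site of SRF, lay only in Egr2 among the 8 members and in 1.63% of all windows. The AP-1 site TGANTCA lay in none of the 8 and in 7.81% of all windows. The EGR site GCGNGGGCG lay in Fosb and Nr4a1 and in 5.55% of windows, and the E-box CACGTG, bound by clock factors, lay in Dusp1 and Egr2 and in 7.15%. TATAAA lay in Fos and Junb and in 13.6%. All motifs were searched on both strands, the windows of these members are rich in G and C (72.3% in Nr4a1 and 58.7% in Fos, against a median of 52.7%), and a match of letters is not a measured binding site, nor does a missing match say more than that the letters are not in the window.

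No member passed the test for a 24 h rhythm after adjustment over all genes, and what the 10 genes had in common was their variation from array to array. Summed up as the mean of the members' standardised log2 levels (each gene centred on its mean over the 13 arrays and divided by its SD), the set was lowest at hour 22 (-1.31) and hour 2 (-1.29). It was highest at hour 38, the ZT14 pool of the second day (1.28), where 10 of 10 members stood above their own median. The pools next to it, hour 42 (0.76) and hour 34 (0.70), followed. At hour 2, 0 of 10 members were above their own median, and at hour 22 only 1 was. The levels of this mean at ZT22 were -1.31 on the first day and 0.12 on the second, so arrays of 1 time of day were far apart.

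**Figure D1:**
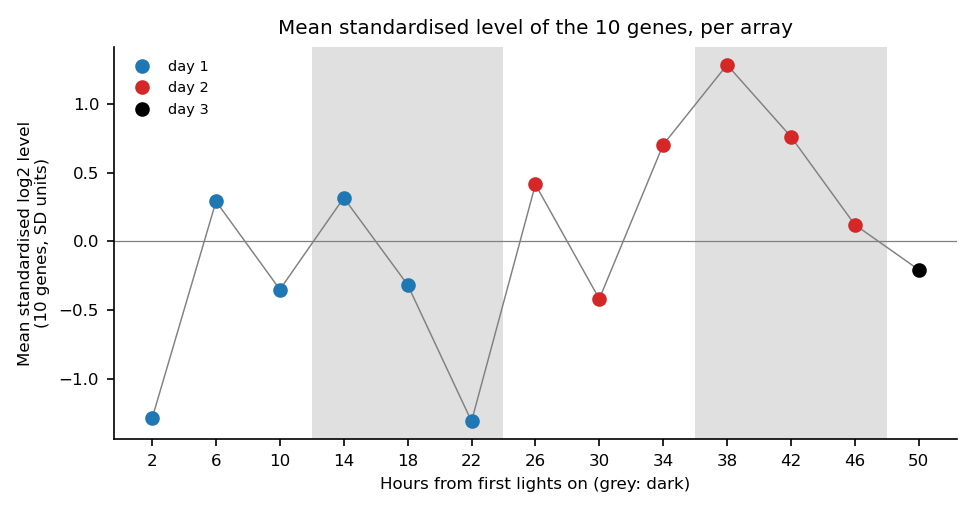
Mean standardised log2 level of the 10 genes (SD units) against hours from first lights on, 1 point per array, blue for the first day, red for the second and black for hour 50, with dark phases in grey. The lowest points are hours 2 and 22 and the highest is hour 38, and no error is drawn because each point is 1 array.

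Fos, which encodes the inducible partner of JUN in AP-1, gave linear intensities of 246, 436 and 604 in the 3 ZT2 arrays, here and below in the order of the days. At ZT6 Fos read 624 and 299, and at ZT10 it read 374 and 614. Its pools read 733 and 932 at ZT14, 343 and 766 at ZT18, and 356 and 794 at ZT22. The highest array was thus 3.79 times the lowest, and within ZT18 and ZT22 the second day was 2.23 times the first. The fitted 24 h curve of Fos had a peak-to-trough difference of 0.74 ± 0.38 (SE, n = 13 arrays) on the log2 scale with a peak at 15.2 h, and an adjusted p of 0.428 (limma F test, Benjamini-Hochberg over 14953 genes).

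Fosb, a second FOS family gene, had the widest range of the 10, from 205 at hour 30 to 917 at hour 38, a 4.46-fold span. Its 3 ZT2 pools read 208, 465 and 478, its ZT6 pools 339 and 205, and its ZT10 pools 380 and 686. In the dark the values were 562 and 917 at ZT14, 584 and 763 at ZT18, and 444 and 806 at ZT22. Light and dark overlapped only through the second ZT10 pool and the ZT2 pools of hours 26 and 50, which stood above the lowest dark value. Its 24 h curve had the largest size of the 10, 1.31 ± 0.33 on the log2 scale (2.48-fold from trough to peak), with a peak at 16.8 ± 0.98 h and an adjusted p of 0.116. Fosb was also the member with the clearest day and night difference, with a dark mean of 679 ± 178 (SD, n = 6) and a light mean of 395 ± 169 (SD, n = 7). The log2 difference was 0.83 (95% interval 0.28 to 1.37), with an unadjusted p of 0.00564 and an adjusted p of 0.439.

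Jun and Junb, the JUN partners, varied much less. Jun read 1916, 2105 and 1839 at ZT2, 2019 and 1849 at ZT6, 1847 and 2256 at ZT10, 2242 and 2216 at ZT14, 1842 and 2108 at ZT18, and 1826 and 1850 at ZT22. Its highest array was 1.24 times its lowest, the smallest span among the 10. Junb read 629, 657 and 664 at ZT2, 661 and 626 at ZT6, 654 and 645 at ZT10, 640 and 676 at ZT14, 597 and 631 at ZT18, and 477 and 632 at ZT22. The hour 22 value stood below all others, between 597 and 676. That single array set the 1.42-fold span of Junb. Fitted 24 h sizes were 0.18 on the log2 scale for both genes, with adjusted p of 0.382 for Jun and 0.448 for Junb. Without the hour 22 array that of Junb was 0.06.

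Atf3, a stress-induced member of the ATF and CREB family that can pair with JUN, read nearly level on the first day and higher in part of the second. The 6 first-day arrays lay between 419 and 542. On the second day Atf3 read 672 at ZT2, 448 at ZT6, 847 at ZT10, 877 at ZT14, 652 at ZT18 and 484 at ZT22, and at hour 50 it read 496. The ZT10 and ZT14 pools of the second day were 1.81 and 1.83 times those of the first, and each exceeded every first-day array. Its 24 h difference was 0.37 ± 0.22 on the log2 scale with an adjusted p of 0.509, and 0.19 without the hour 38 array.

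Egr1, a zinc finger factor induced by growth factors and injury, read 1372, 3015 and 2398 at ZT2, so the lowest array of all and one of the higher ones came from the same time of day. Its other pools read 2614 and 2427 at ZT6, 2178 and 3045 at ZT10, 2447 and 3053 at ZT14, 2497 and 3020 at ZT18, and 1708 and 2722 at ZT22. The second day held the higher value at 5 of 6 times of day. Egr2, its close relative known from Schwann cells and hair follicle cells, read 1177, 1972 and 1477 at ZT2 and 1842 and 1900 at ZT6. Its later pools read 1626 and 1760 at ZT10, 1349 and 1738 at ZT14, 1866 and 1612 at ZT18, and 1347 and 1483 at ZT22. Among the 10 members, Egr2 alone was highest outside ZT10 and ZT14 of the second day, at hour 26. The 24 h differences were 0.37 ± 0.23 on the log2 scale for Egr1 (adjusted p = 0.526) and 0.23 ± 0.17 for Egr2 (adjusted p = 0.621). Without the hour 2 array that of Egr1 was 0.16.

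Nr4a1, an orphan nuclear receptor, had the next largest fitted 24 h size after Fosb and Fos, and the earliest fitted peak of the 3 members with an unadjusted p under 0.05. It read 707, 1360 and 978 at ZT2, 1461 and 1235 at ZT6, and 1031 and 1474 at ZT10. In the dark it read 1445 and 1613 at ZT14, 831 and 1351 at ZT18, and 702 and 984 at ZT22. The 2 ZT14 pools stood above both ZT18 and both ZT22 pools. However, the first ZT6 pool (1461) and the second ZT10 pool (1474) exceeded the first ZT14 pool (1445). The share of all genes with a like gap was not counted. The 24 h difference was 0.71 ± 0.24 on the log2 scale (1.64-fold), with a peak at 10.9 ± 1.28 h and an adjusted p of 0.237.

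Dusp1, the phosphatase that switches off MAP kinases, varied with Fos. Its arrays read 3364, 4236 and 4174 at ZT2, 5456 and 3962 at ZT6, 5149 and 6012 at ZT10, 5228 and 6702 at ZT14, 4353 and 6427 at ZT18, and 3041 and 5239 at ZT22. Both ZT10 pools and both ZT14 pools exceeded all 3 ZT2 pools, but the first ZT6 pool (5456) stood above the first pools of ZT10 and ZT14. The 24 h difference was 0.64 ± 0.18 on the log2 scale (1.56-fold), peaking at 12.98 ± 1.17 h, with an adjusted p of 0.173. Ier2, an early nuclear protein whose role is less well known, varied little. It read 278, 299 and 290 at ZT2, 301 and 292 at ZT6, 266 and 255 at ZT10, 319 and 360 at ZT14, 278 and 344 at ZT18, and 238 and 310 at ZT22, and only ZT14 had both pools above all the ZT2, ZT6 and ZT10 pools. The second ZT18 pool of Ier2 (344) lay above the first ZT14 pool (319). How many of all genes had gaps like those of Dusp1 and Ier2 was not counted. The 24 h difference of Ier2 was 0.15 ± 0.12 on the log2 scale with an adjusted p of 0.649. It was 0.08 without the hour 38 array and 0.10 without the hour 42 array.

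**Figure D2:**
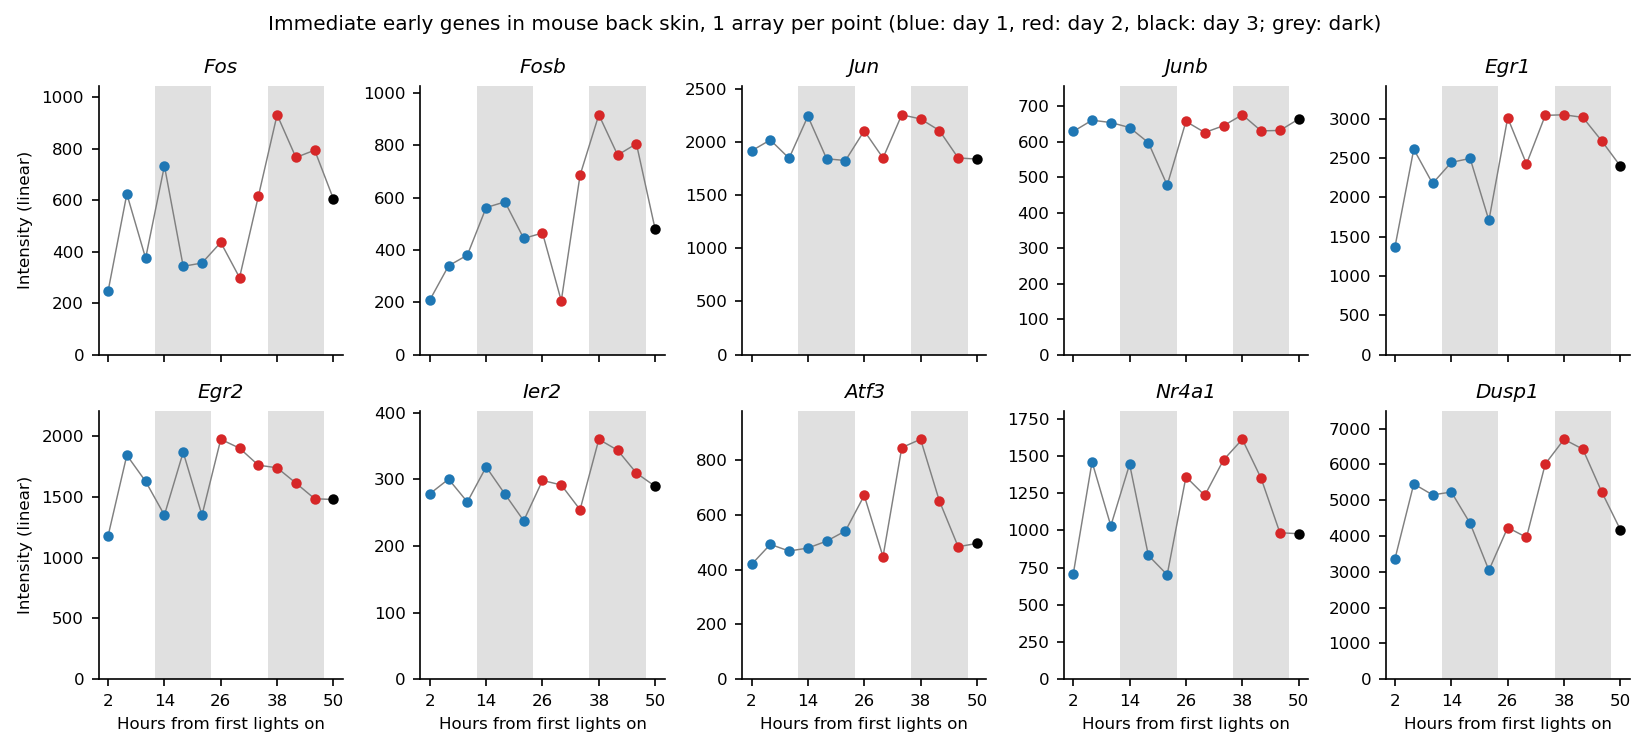
Linear intensity of each of the 10 genes (axes start at 0) against hours from first lights on, 1 point per array, blue for the first day, red for the second and black for hour 50, with dark phases in grey. Fos, Fosb, Junb, Egr1, Ier2, Atf3, Nr4a1 and Dusp1 reach their highest values at hour 38, and Jun and Junb have the narrowest spans.

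Read over all comparisons, the tests called no member after adjustment. The 24 h test called 0 of 10 members and 2.13% of all genes tested, and at an unadjusted p under 0.05 it took 3 members (Fosb, Dusp1 and Nr4a1) and 18.5% of all genes. The time-of-day test, which fits no curve, called 0 members and 0.294% of genes, and 0 members and 8.94% of genes before adjustment. Dark against light called 0 members and 0.0201% of genes, and Fosb alone and 8.28% of genes before adjustment. A 12 h component called 0 members and 0.0% of genes, and 0 members and 5.43% before adjustment. A difference of the rhythm between days called 0 members and 0.0% of genes, and Dusp1 alone (unadjusted p = 0.0081) and 12.8% of genes before adjustment. The median peak-to-trough size was 0.37 on the log2 scale among members and 0.19 among all genes tested, and fitted peaks ranged from 8.97 h (Junb) to 16.8 h (Fosb). With the arrays of hours 2 and 46 left out, the 24 h differences were 1.098 for Fosb (adjusted p = 0.124), 0.68 for Dusp1 (0.148) and 0.65 for Nr4a1 (0.282). With hours 2 and 22 left out they were 1.22 (0.0841), 0.44 (0.201) and 0.44 (0.393).

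In 8 of 10 members the mean over arrays was highest at ZT14, a placement seen in 10.8% of all genes tested. Since the members vary together and 8 of 10 had their highest array at hour 38, these are not 10 separate observations. The exceptions were Egr1, highest at ZT18, and Egr2, highest at ZT6. In no member did any of the 5 pairs of neighbours in the order of the 6 times of day have pools that stood apart. The share of all genes without such a gap was not counted, so this is not read as particular to the members. The lowest and highest times of day stood apart in 8 of 10 members and in 79.5% of all genes tested, so that separation of extremes was at the background. The order of Fos ran from ZT2 over ZT6, ZT10, ZT18 and ZT22 to ZT14.

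Levels on the second day were higher on average than on the first in all 10 members, but no difference passed the adjusted test. Egr1 had a first-day mean of 2136 ± 495 and a second-day mean of 2880 ± 255 (SD, n = 6 each). Nr4a1 had a first-day mean of 1029 ± 349 and a second-day mean of 1336 ± 215, a fitted difference of 0.42 on the log2 scale (95% interval 0.11 to 0.73). The fitted differences of Fosb (0.52), Fos (0.51), Egr1 (0.46) and Atf3 (0.40) were of like size, and those of Jun (0.08) and Junb (0.09) were the smallest. With single times of day left out, the difference ranged from 0.38 to 0.81 for Fos, from 0.20 to 0.45 for Dusp1 (both highest without ZT6), and from 0.09 (without ZT2) to 0.28 for Egr2. It ranged from 0.04 (without ZT10) to 0.12 (without ZT6) for Jun and from 0.02 (without ZT22) to 0.12 for Junb. All 10 differences were above 0, against 52.9% of genes, and the median was 0.35 among members and 0.01 among all genes tested. Adjusted p lay between 0.604 and 0.621 for all 10, and the test called 0.0% of genes. At an unadjusted p under 0.05, 4 members (Atf3, Egr1, Fosb and Nr4a1) and 6.46% of all genes passed, all 4 members in the higher direction, which 3.04% of all genes took.

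The difference between days was uneven over the hours. At ZT2 all 10 members were higher on the second day, with a median ratio of 1.64, where 57.7% of all genes were higher. At ZT6 only 1 of 10 (Egr2, ratio 1.03) was higher, where 51.5% of all genes were, and Fos and Fosb read 0.479 and 0.605 times their first-day intensities. From ZT10 to ZT22 between 8 and 9 of 10 were higher, with median ratios from 1.26 at ZT14 and ZT18 to 1.36 at ZT22. The share of all genes higher on the second day was 61.2% at ZT10, 44.8% at ZT14, 48.0% at ZT18 and 45.5% at ZT22. Over all hours, 46 of the 60 gene and hour pairs were higher on the second day, against 51.4% of such pairs over all genes tested. The members vary together and rest on 6 pairs of arrays. Neither the 60 pairs nor the 10 day differences are therefore separate observations. When hours 2 and 22 were left out, an alternative chosen after seeing the data, the day difference became 0.28 for Fos, 0.30 for Fosb, 0.24 for Egr1, 0.28 for Nr4a1 and 0.48 for Atf3. Of the 4 genes with an unadjusted p under 0.05, Fosb and Nr4a1 then had unadjusted p of 0.264 and 0.115, and Egr1 and Atf3 had 0.0476 and 0.0313. These last 2 were the only members under 0.05 there, beside 5.03% of all genes tested, or 2.82% in the higher direction. Hours 2 and 22 are 2 of the 3 arrays that stood furthest from the rest, and all 10 differences were still above 0 without them. Those of Junb (0.01) and Egr2 (0.08) were small, and the share of all genes above 0 was not counted in that setting. Leaving out 1 array removes its time of day from this comparison. ZT6 was the only time of day at which most members were lower on the second day. Leaving it out removes the pair that went against the rest, so the p-values of that setting are no separate support. Without the ZT6 pair, the difference was 0.81 for Fos (unadjusted p = 0.000119), 0.77 for Fosb (6.01e-05) and 0.45 for Dusp1 (0.0011), with a limma adjusted p of 0.485 for each. Then 6 of 10 members, against 8.44% of all genes tested, had an unadjusted p under 0.05. Without any other single time of day that count lay between 2 and 5, and the share of all genes between 2.49% (without ZT2) and 7.76% (without ZT10). Egr1 and Nr4a1 were in it each time.

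**Figure D3:**
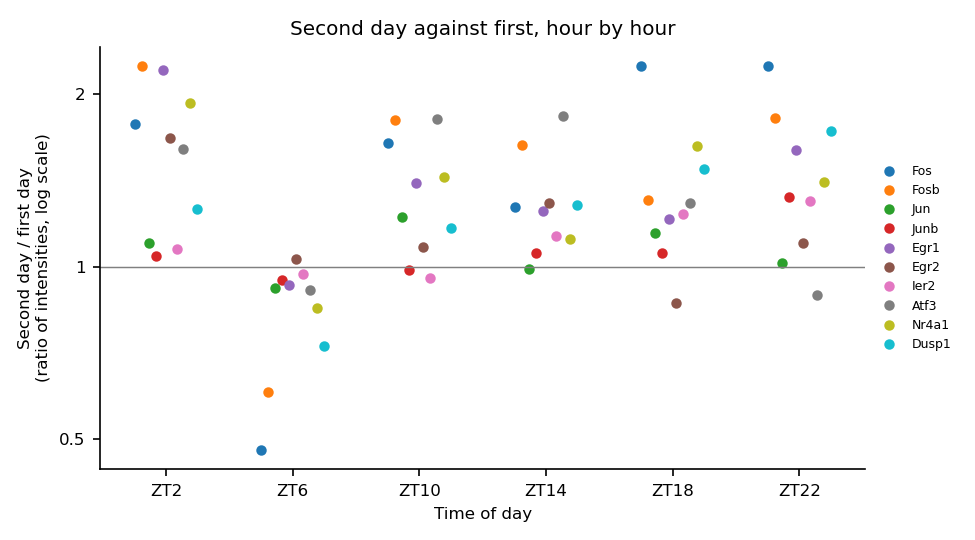
Second-day intensity divided by first-day intensity of each gene (log axis) at the 6 times of day, 1 point per gene and 1 array per day. All 10 points lie above 1 at ZT2, 9 of 10 lie below 1 at ZT6, and most lie above 1 from ZT10 to ZT22.

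**Figure D4:**
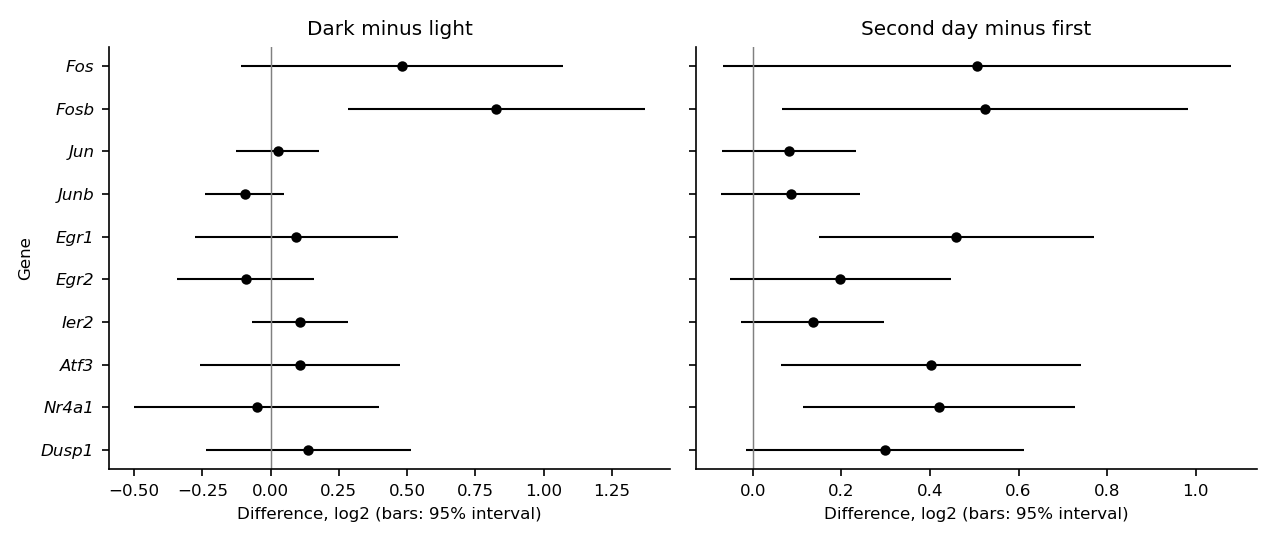
Fitted log2 differences of the 10 genes with 95% intervals, dark minus light (13 arrays, left) and second day minus first (12 arrays, right). The interval of Fosb excludes 0 in the left panel, and all 10 points lie above 0 in the right panel, where the intervals of Fosb, Egr1, Atf3 and Nr4a1 exclude 0 before adjustment over genes.

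The size of the scatter between pools of 1 time of day set 6 members apart from most genes. Pools of 1 time of day were taken on different days, so this scatter holds any difference between days and cannot be told apart from it. The SD within a time of day was 0.64 on the log2 scale for Fos, at the 98.3 percentile of genes tested, and 0.54 for Fosb, at the 98.1 percentile. Egr1 (0.40), Atf3 (0.38), Nr4a1 (0.37) and Dusp1 (0.32) lay above the 95 percentile too. Junb and Jun lay at the 32.7 and 32.0 percentiles and Ier2 at the 47.5. The median over members was 0.35, against 0.14 over all genes tested. The highest array was over 2 times the lowest in 6 members, and the median span was 2.15-fold among members and 1.45-fold among all genes tested. The share of all genes with a span over 2-fold was not counted. Few arrays set these spans, since 4 members were lowest at hour 2, 5 at hour 22, and 8 were highest at hour 38.

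The members varied together from pool to pool. All 45 pairs of members had a Pearson r above 0 over the 13 arrays, from 0.10 to 0.81 with a mean of 0.53, and 43 had a Spearman rho above 0. With permutation p-values adjusted over the 45 pairs, 19 pairs passed by Pearson, 13 by Spearman and 12 by both. Neither the mean r nor the share passing was computed for pairs of other genes. These counts are therefore not read as particular to the members. Points of the same array share a pool of mice and a hybridisation, so these coefficients describe shared scatter and not separate measurements. The mean r was 0.61 for deviations from the time-of-day means, which also hold any difference between days. It was 0.43 within the first day and 0.42 within the second. Without the 2 arrays furthest out for each pair it was 0.43, and without hours 2 and 22, it was 0.38, with 39 of 45 pairs above 0. Without hours 2 and 46 it was 0.51.

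Fos and Dusp1 were among the most alike pairs, with r = 0.81 (permutation p = 0.00126, adjusted p = 0.0121) and rho = 0.84 (permutation p = 0.00063, adjusted p = 0.00945). Without the 2 outermost arrays r was 0.73, and within times of day it was 0.93. Egr1 and Nr4a1 gave r = 0.81 (permutation p = 0.00049, adjusted p = 0.0121), rho = 0.77 (permutation p = 0.00272, adjusted p = 0.0245), and r = 0.58 without the 2 outermost arrays. Fos and Fosb gave r = 0.80 (permutation p = 0.00083, adjusted p = 0.0121) and rho = 0.77 (permutation p = 0.00355, adjusted p = 0.0266). Their r was 0.64 without the 2 outermost arrays, 0.49 in the first day and 0.97 in the second. Jun, though nearly level, followed Nr4a1 with r = 0.79 (permutation p = 0.00203, adjusted p = 0.0152), rho = 0.84 (permutation p = 0.00062, adjusted p = 0.00945), and r = 0.76 without the 2 outermost arrays. Egr2 was the least alike to the rest, with a mean r of 0.33 to the other 9 members and 0.10 to Fos.

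**Figure D5:**
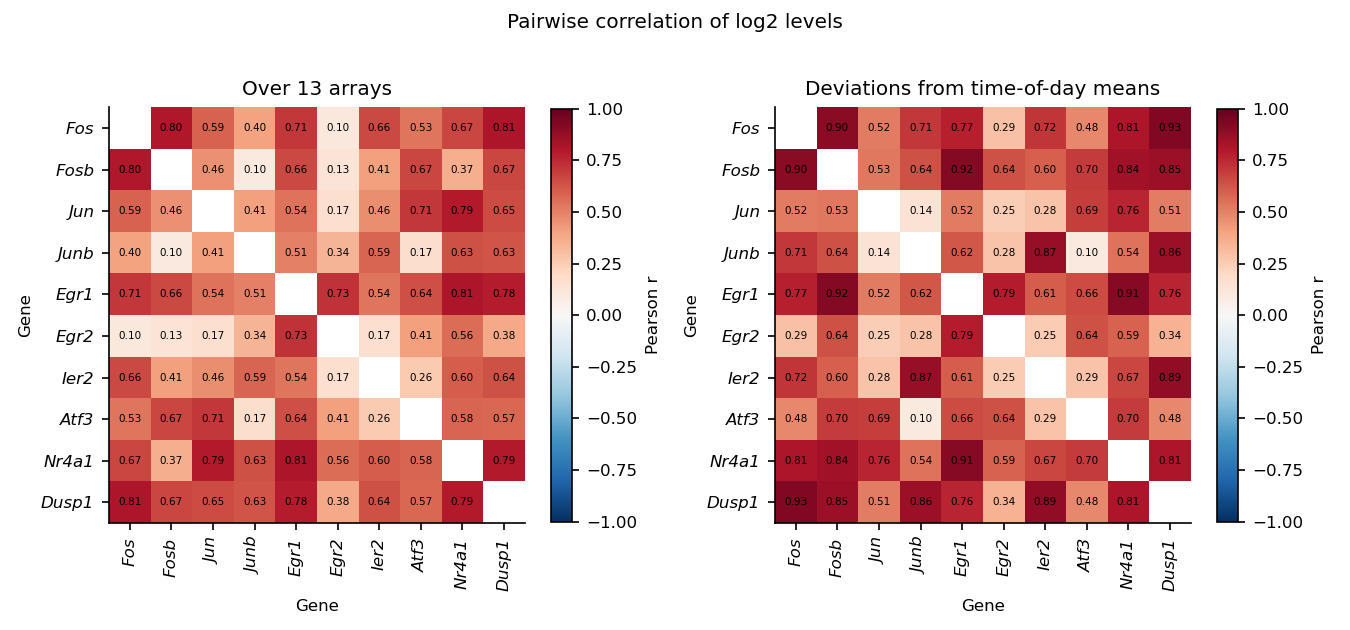
Pearson r of log2 levels for each pair of the 10 genes, over the 13 arrays (left) and for deviations from the means of the 6 times of day (right), on a colour scale from -1 to 1. All pairs are above 0 in both panels, and the row of Egr2 is the palest on the left.

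Some markers of cell types moved with the members. The mean log2 level of the differentiated keratinocyte markers had r = -0.61 with the mean of the members, that of hair follicle stem cell markers 0.58, neutrophil 0.53, Schwann cell 0.46 and macrophage and dendritic cell 0.44. These were the largest in size among all marker lists, and the others lay between -0.37 (endothelium) and 0.38 (melanocyte). Without hours 2 and 22 the 5 coefficients given first were -0.16, 0.07, -0.36, 0.47 and 0.24. That of the mast cell markers, 0.11 over all arrays, was then -0.45. The summed intensity of the 6 hair follicle stem cell markers ran from 14848 to 21015 on the first day and from 19595 to 21509 on the second. That of the 8 macrophage and dendritic cell markers ran from 11289 to 16300 and from 15512 to 17997. The 5 of 8 differentiated keratinocyte markers with a probe set summed to between 44767 and 49188 on the first day and between 44049 and 47112 on the second. The 4 of 6 Schwann cell markers with a probe set summed to between 12715 and 14472 and between 13782 and 15318. The 6 neutrophil markers summed to between 773 and 1261 and between 1052 and 1319. Of 6 neutrophil markers 3 lay below the filter, among them S100a8 and Ly6g, and no marker was at 0. The array median intensity had r = 0.32 with the mean of the members. The part of cell makeup in the shared scatter was not tested.

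The genes outside the set that followed its mean most closely over the 13 arrays were Pitpnm2 (r = 0.91), Hdac4 (0.91), Fam53b (0.89), Rhbdl3 (0.89) and Adamtsl4 (0.89), then Zfp36l1, Gli2, Pnkd, Pkd1 and Wnk2 (0.87 to 0.88). Their spans were narrower than those of Fos and Fosb. Pitpnm2 ran from 982 at hour 22 to 1476 at hour 38. Zfp36l1, which encodes an RNA-binding protein that promotes mRNA decay, ran from 2686 at hour 2 to 4101 at hour 38. Gli2, a transcription factor of Hedgehog signalling, ran from 514 at hour 2 to 948 at hour 14. The 5 genes most like Fos were Rhbdl3 (r = 0.87), 2810410L24Rik (0.87), Smim1 (0.87), Dbndd2 (0.86) and Trim47 (0.86). These were picked out of 14953 genes for their likeness, so the coefficients are descriptions without a test.

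Other genes of the same pathways were read from lists. Among 17 AP-1 and ATF partners tested, the 24 h test called 0 at an adjusted p under 0.05 and 5 at an unadjusted p under 0.05, and the smallest p-values were those of Atf4 (adjusted p = 0.158) and Maff (0.167). Among 6 EGR and NR4A genes and cofactors it called 0 (1 before adjustment), and Egr4 (0.268) and Nr4a3 (0.577) came first. Of 17 MAP kinase phosphatases and ERK feedback genes, 0 were called (4 before adjustment), Spry1 and Dusp6 having the smallest adjusted p (0.209 and 0.213). Dusp6, an ERK phosphatase, had r = 0.82 with the mean of the members. Of 23 upstream kinases and SRF, ETS and CREB factors, 0 were called (3 before adjustment), and Map2k6 (0.178) and Rps6ka3 (0.192) came first. Median r with the mean of the members was 0.52 for the AP-1 and ATF partners, 0.62 for the EGR and NR4A list, 0.40 for the phosphatases, -0.01 for the upstream factors and 0.04 for all genes tested. Beside these list counts, the 24 h test took 2.13% of all genes tested after adjustment and 18.5% before it.

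Among 56 other immediate early genes the 24 h test called 3, against 2.13% of all genes tested. Before adjustment it took 20 of the 56, against 18.5% of all genes. Per1, a clock repressor, had a 3.51-fold trough-to-peak change with a peak at 10.5 h (adjusted p = 0.000634). Bhlhe40, a repressor of clock targets, changed 2.46-fold with a peak at 10.2 h (adjusted p = 0.000955). Sik1, a kinase that restrains CREB signalling, changed 1.54-fold with a peak at 11.04 h (adjusted p = 0.00882). For scale, 16 of 17 core clock genes were called in the same arrays, Per1 and Bhlhe40 again among them because both lists hold them. Dbp changed 20.8-fold and Nr1d1 8.52-fold. Of 12 glucocorticoid-responsive genes 5 were called. Besides Per1 these were Klf9 (1.74-fold, peak at 9.49 h) and Zbtb16 (2.47-fold, peak at 11.7 h). The others were Fkbp5, a chaperone of the glucocorticoid receptor (2.34-fold, peak at 13.02 h), and Tsc22d3 (2.13-fold, peak at 13.02 h). Dusp1, which the glucocorticoid receptor is also known to induce, had its own fitted peak at 12.98 h and was not called. The peaks of the called genes thus lay both near that of Dusp1 and hours before it, and a link was not tested.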

How the data were processed

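Whole-skin RNA of 13 pools was measured on 13 one-colour arrays. The authors deposited linear probe set intensity values, made with Expression Console 1.1.1 and PLIER 2.0 among the tools listed per the submitters' processing notes. How arrays were normalized to each other, and with which annotation, is not given in the sources used here. Of 35557 probe sets, 21789 were paired with 1 gene, 1621 with several and 12147 were not listed, and only the first were used. For a gene with several, the probe set with the highest mean was kept. An offset of 16 was added before log2, and the dimmest 25% of genes were left out.

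Tests were fitted with limma 3.58.1 in R 4.3.3 over all 14953 genes, with Benjamini-Hochberg adjustment and a threshold of 0.05. They were a 24 h cosine curve, time of day as a factor, dark minus light, second day minus first with time of day as a block, a 12 h component and the rhythm by day. The steps were tested on simulated data. Intervals are limma's 95% intervals. Correlations used 100000 permutations. The offset, the filter, the normalization, the probe set rule, the variance prior, the collection day as a block, the arrays used and leaving out each array were varied.

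The members and lists were chosen with earlier results of these data known. Named genes are all members, the 10 genes most like their mean, the 5 most like Fos, and from each list those called over 24 h (at most 5) or otherwise the 2 with the smallest p. Nothing in the labels says that pools of the same time of day share animals or litters, so p-values measure the spread between pools. Precision is limited by the number of arrays, and no intensity was compared between genes.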

Additional observations from a re-analysis of the deposited data

Results flagged for a closer look

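Junb read 477.2 at hour 22 (ZT22 of the first day), far below the other dark arrays and also far below the other first-day arrays, by the Dixon gap criterion for 6 samples. The other 5 dark arrays lay between 597 and 676. Egr1 read 1372 at hour 2 (ZT2 of the first day), far below the other light arrays by the same criterion for 7 samples. These were 3 of 40 groups of member values looked at, and chance gives such a gap in about 1 of 20 groups. Both arrays are among those that stood apart from the rest.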

How the results depend on the processing

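Over 25 alternatives (22 for the comparisons of days), no member was called in the 24 h test. The lowest adjusted p was 0.064 for Fosb, with the collection day as a block, and 0.0846 for Dusp1, without the second ZT22 array. The count of genes called over 24 h was 318 and became 211 with the day as a block, 203 with hours 2 to 46 only and 773 with hours 2 and 22 left out. Without single arrays it ranged from 126 to 414, and moved by over 1.5 times without either ZT6, ZT10 or ZT14 array or the ZT2 arrays of hours 26 and 50. In the time-of-day test a member, Junb, passed in a single setting, with hours 2 and 46 left out, which was added after seeing the data. The range of Junb over times of day there was 0.46 on the log2 scale, against 0.25 with all arrays. That setting leaves hour 22 as the only ZT22 array, and ZT22 is assumed to vary like the other groups. Far more genes passed there than with all arrays, so the call is not read as particular to Junb. The time-of-day count over all genes was 44 with all arrays, lowest with the collection day as a block (13) and highest in that same setting. Across alternatives the dark minus light count ran from 1 to 36, and the 12 h count was 197 without the first ZT10 array against 0 otherwise. The causes were not tested. Dark minus light changed sign without single arrays, with ranges of -0.0357 to 0.207 for Egr1, -0.166 to 0.0768 for Nr4a1, -0.00638 to 0.0577 for Jun and -0.0119 to 0.215 for Atf3, and was -0.0568 for Egr1 with hours 2 and 46 left out. The mean pairwise r ran from 0.38 to 0.59. Ier2 was not tested when the dimmest 50% of genes were left out.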

Other observations

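Of 13 heat shock genes tested, 3 were called over 24 h, where 2.13% of all genes were, namely Hspa5 (1.69-fold, peak at 20.4 h), Hsp90aa1 (1.67-fold, peak at 20.3 h) and Hsph1 (1.89-fold, peak at 19.6 h) with fitted peaks in the dark phase. The median r of the 13 with the mean of the members was -0.09, against 0.04 over all genes tested. At an unadjusted p under 0.05, 3 of the 13 were lower on the second day and 0 higher, against 3.42% and 3.04% of all genes tested. The summed intensity of 8 hepatocyte markers ran from 9650 at hour 46 to 77844 at hour 10 in these skin arrays, with r = -0.01 to the mean of the members.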
